A study of Sus scrofa with 24 samples.

Results

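The fibroblast growth factors and their receptors were followed here in porcine preadipocytes of 2 fat depots over 8 days of adipogenic culture. The family was taken as 10 genes chosen by symbol, 6 secreted ligands (FGF1, FGF2, FGF7, FGF9, FGF10 and FGF18) and the 4 receptor tyrosine kinases FGFR1 to FGFR4. Of these, 9 had a row among the 25462 genes of the expression table, 5 ligands and 4 receptors, and all 9 were among the 16135 genes tested. FGF7 could be matched to no row and was not analysed here.

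The cells were primary precursors of fat cells from 6-day-old Yorkshire piglets (3 in the study), isolated from subcutaneous back fat (BF) or from the longissimus dorsi muscle (IMF, for intramuscular). Per the study's methods, both depots were cultured under 1 regime, with IBMX (a phosphodiesterase inhibitor), dexamethasone (a glucocorticoid) and insulin for 2 days, insulin alone for the next 2 days and growth medium thereafter. The muscle was digested longer and with more collagenase than the back fat, so depot and isolation cannot be told apart. Each depot was sampled on days 0, 2, 4 and 8 with 3 replicates, giving 8 groups and 24 libraries, and groups carry the depot and the day in their names (BF-2d, IMF-8d). The labels do not say which replicates came from separate piglets or cultures, so the p-values measure the spread between these libraries, which may in part be technical.

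Fibroblast growth factors are secreted proteins that bind receptor tyrosine kinases on the cell surface together with heparan sulphate chains, and the activated receptor signals mainly through RAS and the ERK kinases, which in turn induce their own inhibitors of the Sprouty and DUSP families. FGF2 and FGF1 are broadly acting ligands made by many stromal cells, whereas FGF10 and FGF7 are mesenchymal ligands that act chiefly through the epithelial splice form of FGFR2. In fat tissue FGF10 and FGF1 are known for roles in the growth and differentiation of adipocyte precursors, and FGF2 for effects on their proliferation that depend on dose.

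Values are FPKM, a measure scaled for transcript length and library size, so levels can be set side by side between genes of different length, but the read depth behind each value is unknown. Fold changes are log2 fold changes of FPKM + 1, which understate the change of genes with low values, and the main ones are given with their standard error (SE) or the Benjamini-Hochberg adjusted p of limma. A call needed an adjusted p under 0.01 and a log2 fold change of 1 or more in either direction, and "rose", "fell", "higher" and "lower" are used of fold changes that were called. The FPKM of a library summed to 307967 to 385768, and the number of genes with 1 FPKM or more lay between 9985 and 10858. In bulk RNA, fewer cells expressing a gene and less of its RNA per cell cannot be told apart.

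The labels call the cells subcutaneous and intramuscular adipocytes, and the adipocyte markers were uneven. Of 8 adipocyte markers, ADIPOQ, PLIN1 and LEP, which mark mature adipocytes, stayed under 1 FPKM in all 24 libraries. PPARG and CEBPA, factors of adipogenesis, had group means of 0.123 to 3.003 and 1.75 to 9.37 FPKM. FABP4 had group means of at most 3.47 FPKM and CIDEC of at most 0.678 FPKM. From day 0 to day 8, PPARG went from 3.003 to 0.973 FPKM in BF. In IMF it went from 0.256 to 0.123 FPKM, with overlapping libraries. CEBPA had 2.26 and 2.35 FPKM on these days in BF and 1.75 and 1.76 FPKM in IMF. Its highest means were 9.37 FPKM in BF-2d and, within IMF, 5.89 FPKM in IMF-4d. The means of FABP4 and CIDEC went up from day 0 to day 8 in both depots. LPL, the lipoprotein lipase, went from 2.22 to 422 FPKM in BF and from 1.06 to 120.4 FPKM in IMF between days 0 and 8 and carried most of the summed level of day 8. The adipocyte sum lay between 9.16 and 10.9 FPKM in BF-0d and between 281 and 622 FPKM in BF-8d, and between 2.79 and 3.67 FPKM in IMF-0d and 97.2 and 143 FPKM in IMF-8d. The 6 stromal markers summed to 13450 to 14693 FPKM in BF-0d, 3717 to 5880 FPKM in BF-4d and 5200 to 5765 FPKM in BF-8d. In IMF-0d, IMF-4d and IMF-8d the sum was 14074 to 14325, 12398 to 12611 and 7197 to 8263 FPKM. COL1A1 and COL1A2 gave most of the BF-0d sum (means of 5753 and 5415 FPKM) and went to 845 and 1451 FPKM in BF-8d. Between days 0 and 8, PDGFRA, COL3A1 and LUM went up in BF (77.0 to 228, 1711 to 2131 and 262 to 328 FPKM). In IMF, PDGFRA (60.1 to 226 FPKM) and DCN (777 to 930 FPKM) went up. Of 6 myogenic markers, MYF5 and MYOD1 were listed at 0 in all libraries and only desmin reached 1 FPKM, at 37.0 ± 7.91 FPKM (SD, n = 3) in IMF-0d. Of 5 endothelial markers, CDH5, KDR, TEK and EMCN stayed under 1 FPKM throughout, and PECAM1 had group means of 1.497 to 4.75 FPKM, with 4.38 FPKM in IMF-8d and 1.67 FPKM in BF-8d. Of 6 immune markers, CD3E was listed at 0 and PTPRC and CSF1R stayed under 1 FPKM, whereas CD68 had group means of 0.829 to 2.11 FPKM, CD14 of 2.97 to 8.45 FPKM and CD79A of 53.3 to 96.6 FPKM, so that the immune sum lay between 53.2 and 134 FPKM. The part of such cells in the results was not tested.

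2 libraries stood apart from their groups. Pearson's correlation over 16135 genes (genes are no independent replicates) was 0.962 to 0.976 between the replicates of BF-2d, 0.965 to 0.991 in BF-4d and 0.969 to 0.988 in BF-8d, against 0.987 to 0.994 within BF-0d and the IMF groups. In BF-2d, replicate 3 had an adipocyte marker sum of 23.1 FPKM against 93.4 and 88.0 FPKM in replicates 1 and 2, and a stromal marker sum of 12653 against 8143 and 6416 FPKM. In BF-4d, replicate 3 had the lowest correlations with the other 2. Its sum of 6 mural (vessel wall) markers was 17.8 FPKM against 40.5 and 64.1 FPKM. Other libraries also differed from their groups in the adipocyte sum. It was 622 FPKM in BF-8d replicate 1 against 281 and 387 FPKM, and 318 FPKM in BF-4d replicate 2 against 187 and 182 FPKM. Member results whose call changed without BF-2d replicate 3 or BF-4d replicate 3 are given with and without it. Of 135 named pathway results, 4 lost their call without each of these 2.

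The sequences before the starts of 4 of these genes are shown because FGF10 and FGF18 were the ligands that differed most between depots, in opposite directions, and because FGFR2 and FGFR3 both rose in BF by day 2. Each window is the 250 bases before the RefSeq gene start in the genome build Sscrofa11.1, read 5′ to 3′ on the strand of the gene. The windows lie at chr16:28779954-28780203 (minus strand) for FGF10, chr16:52760247-52760496 (minus strand) for FGF18, chr14:131285002-131285251 (minus strand) for FGFR2 and chr8:878901-879150 (plus strand) for FGFR3. Capitals mark matches on either strand of the GC box (GGGCGG) or the CCAAT box (CCAAT), 2 common promoter elements.
FGF10: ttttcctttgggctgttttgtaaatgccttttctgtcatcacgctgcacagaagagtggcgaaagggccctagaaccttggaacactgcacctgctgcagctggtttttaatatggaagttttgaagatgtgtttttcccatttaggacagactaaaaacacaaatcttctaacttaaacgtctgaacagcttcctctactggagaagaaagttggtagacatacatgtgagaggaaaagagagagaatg
FGF18: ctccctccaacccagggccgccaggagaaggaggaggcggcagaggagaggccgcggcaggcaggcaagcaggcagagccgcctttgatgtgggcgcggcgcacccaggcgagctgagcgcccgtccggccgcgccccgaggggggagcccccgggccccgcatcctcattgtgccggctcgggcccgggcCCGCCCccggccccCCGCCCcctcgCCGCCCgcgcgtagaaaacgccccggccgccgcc
FGFR2: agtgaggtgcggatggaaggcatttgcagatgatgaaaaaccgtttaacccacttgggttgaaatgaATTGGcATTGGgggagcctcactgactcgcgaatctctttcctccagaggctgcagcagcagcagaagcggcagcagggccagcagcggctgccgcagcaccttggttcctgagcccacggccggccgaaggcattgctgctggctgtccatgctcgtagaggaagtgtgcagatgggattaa
FGFR3: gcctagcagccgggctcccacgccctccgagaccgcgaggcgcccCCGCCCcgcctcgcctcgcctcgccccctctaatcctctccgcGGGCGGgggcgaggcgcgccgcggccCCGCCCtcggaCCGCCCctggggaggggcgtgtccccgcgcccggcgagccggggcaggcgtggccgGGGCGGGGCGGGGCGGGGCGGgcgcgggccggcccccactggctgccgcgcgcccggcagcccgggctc

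The windows of the 4 genes differed widely in base composition. GC content was 41.6% for FGF10, 57.2% for FGFR2, 79.6% for FGF18 and 86.4% for FGFR3, where the median over the 19556 windows of all genes was 57.6%. GC boxes were found 3 times in the FGF18 window and 8 times in that of FGFR3, counting overlapping matches, and 45.9% of all windows held at least 1. The FGFR2 window held 2 CCAAT boxes, found in 31.9% of all windows, and the FGF10 window held neither element. Motifs of factors through which cAMP, glucocorticoids and adipogenesis are known to act were searched on both strands in the same windows, namely the cAMP response element (TGACGTCA, in 1.7% of all windows) and its core TGACG, which is part of the full element (19.6%), a C/EBP site (TTGCNNAA, 8.22%) and the AGAACA hexamer of glucocorticoid response elements (10.3%). None of these 4 motifs occurred in the windows of the 9 genes, which says only that the letters are not in these 250 bases.

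Between depots, 2 of the 9 genes were called on day 0, where 2.58% of all tested genes were called, 4 of 9 on day 2 (background 4.74%), 2 of 9 on day 4 (11.3%) and 2 of 9 on day 8 (6.96%). Within BF, 3 of 9 were called over days 0 to 2 (6.59% of all genes), 2 of 9 over days 2 to 4 (3.35%), 1 of 9 over days 4 to 8 (2.93%) and 2 of 9 over the whole culture (13.7%). Within IMF, 2 of 9 were called over days 0 to 2 (0.787%), 0 of 9 over days 2 to 4 (0.0372%), 3 of 9 over days 4 to 8 (7.25%) and 2 of 9 over the whole culture (9.04%). With limma, the interval of days 2 to 4 in IMF held 6 called genes among all 16135, and 1 member, FGF9, had an unadjusted p under 0.05 in it. For the difference between depots in the change over time, 2 of 9 were called over days 0 to 2 (2.45% of all genes), 0 of 9 over days 2 to 4 (3.06%; unadjusted p under 0.05 in limma for 4 members), 2 of 9 over days 4 to 8 (6.39%) and 1 of 9 over the whole culture (4.98%). Successive intervals share the libraries of the day between them, so their counts are not independent. FGF9, FGFR1 and FGFR4 were called by limma in 0 of the 16 comparisons and had an unadjusted p under 0.05 in 2, 10 and 5 of them.

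**Figure D1:**
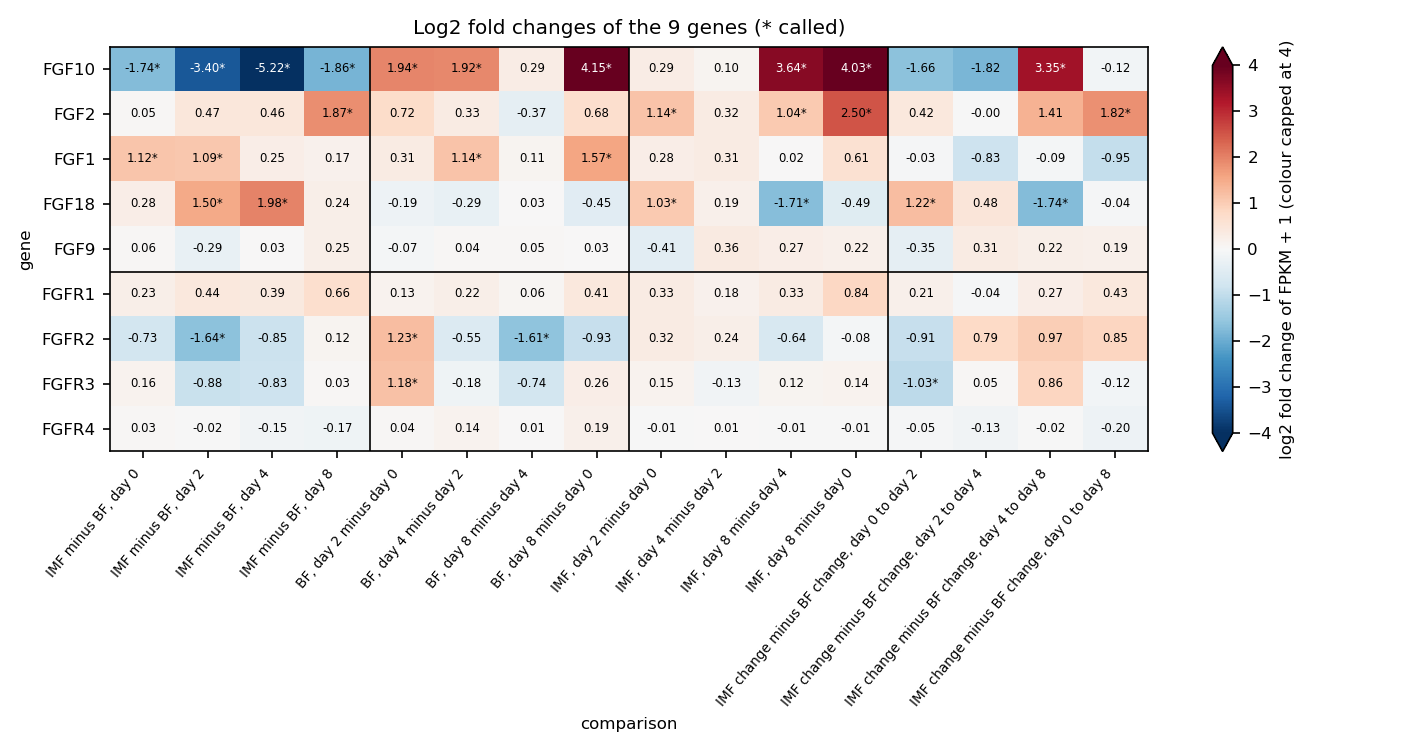
Log2 fold change of FPKM + 1 for the 9 genes (rows, ligands above the line and receptors below) in the 16 comparisons (columns: IMF minus BF by day, later minus earlier day in BF, the same in IMF, and the IMF change minus the BF change), each from 3 libraries per group. Red is a positive and blue a negative difference, the colour is capped at 4 and an asterisk marks a called difference. FGF10 has the deepest colours of the map, from -5.22 between depots on day 4 to 4.15 over 8 days in BF.

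FGF10 (ENSSSCG00000016878, Sscrofa11.1 chr16:28695465-28779953, minus strand) was the member with the largest changes. This ligand of the mesenchyme was called between depots on all 4 days, always higher in BF. In BF-0d the 3 libraries had 3.27, 2.96 and 2.86 FPKM, and in IMF-0d 0.267, 0.162 and 0.185 FPKM. In BF-2d the libraries had 30.9, 19.0 and 4.83 FPKM, and in IMF-2d 0.472, 0.821 and 0.187 FPKM. In BF-4d the libraries had 64.1, 61.2 and 48.8 FPKM, and in IMF-4d 0.514, 0.623 and 0.590 FPKM. Up to day 4, every IMF library thus stayed under 1 FPKM while BF reached 48.8 to 64.1 FPKM on day 4, with no overlap on any of these days. In BF-8d the libraries had 63.7, 72.6 and 75.8 FPKM, and in IMF-8d 19.6, 22.3 and 14.8 FPKM, so that by day 8 IMF cells had come to the level that BF cells had on day 2 (18.3 ± 13.1 FPKM, SD, n = 3).

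Between depots the log2 fold change of FGF10, IMF minus BF, was -1.74 on day 0 (SE 0.36, adjusted p = 0.00201), -3.40 on day 2 (adjusted p = 1.37e-06), -5.22 on day 4 (adjusted p = 1.35e-09) and -1.86 on day 8 (adjusted p = 0.000436). In BF the gene rose by 1.94 over days 0 to 2 and by 1.92 over days 2 to 4, whereas the difference over days 4 to 8 was 0.29 (adjusted p = 0.642). In IMF the order of events was different. The differences up to day 4 were 0.29 and 0.10 and neither was called, and the called rise fell between day 4 and day 8 (3.64, SE 0.36, adjusted p = 2.48e-07). That the change over days 4 to 8 was larger in IMF was itself called (interaction 3.35, SE 0.51, adjusted p = 0.000121). Over the whole 8 days, the gene rose by 4.15 in BF and by 4.03 in IMF on this scale, and the interaction was -0.12 (95% interval -1.18 to 0.93, adjusted p = 0.905). That near equality held for a pseudocount of 1 and not for smaller ones, with which the interaction was 1.46 (0.1, adjusted p = 0.120) and 1.93 (0.01, adjusted p = 0.0602), in neither case called.

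The library that stood apart in BF-2d was also the lowest of its group in FGF10. Without BF-2d replicate 3, the rise in BF was 2.65 over days 0 to 2 and 1.21 over days 2 to 4, both still called, and the difference between depots on day 2 was -4.10. Without the same library, the interaction over days 0 to 2 was called as well (-2.36, against -1.66 with an adjusted p of 0.0349 for all libraries). When a fit held the libraries of the compared groups only, the calls on day 2 between depots and over days 0 to 2 and 2 to 4 in BF were lost (adjusted p = 0.0308, 0.0625 and 0.176). The call on day 0 was lost without BF-0d replicate 1 (-1.70, adjusted p = 0.0111), and with a pseudocount of 0.1 in place of 1 that difference was -3.37. The interaction over days 2 to 4 (-1.82, adjusted p = 0.0231) was called without BF-2d replicate 1 (-2.34, adjusted p = 0.000914). The adipocyte marker sum was 11.4 to 14.3 FPKM in IMF-4d and 182 to 318 FPKM in BF-4d. The stromal sum was 12398 to 12611 FPKM and 3717 to 5880 FPKM in the same groups. Most of the BF-4d adipocyte sum was LPL (mean 222 FPKM, against 5.50 FPKM in IMF-4d). CEBPA and CIDEC went the other way, with means of 5.89 and 0.169 FPKM in IMF-4d and 4.02 and 0.0422 FPKM in BF-4d. Of the stromal markers, PDGFRA went against the sum (144 FPKM in IMF-4d and 342 FPKM in BF-4d), and LUM was at 249 FPKM in both. Between IMF-4d and IMF-8d, over which FGF10 rose, the adipocyte sum went to 97.2 to 143 FPKM. The stromal sum went to 7197 to 8263 FPKM. Over that interval the mean of LPL went from 5.50 to 120 FPKM. PPARG (0.854 to 0.123 FPKM) and CEBPA (5.89 to 1.76 FPKM) went against the adipocyte sum, and PDGFRA (144 to 226 FPKM) against the stromal sum. The part of cell composition in these differences was not tested. In RefSeq, FGF10 lies wholly within the span of LOC102161640 on the opposite strand with 0 shared exon bases, and whether counting used strand is not given in the sources used here.

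**Figure D2:**
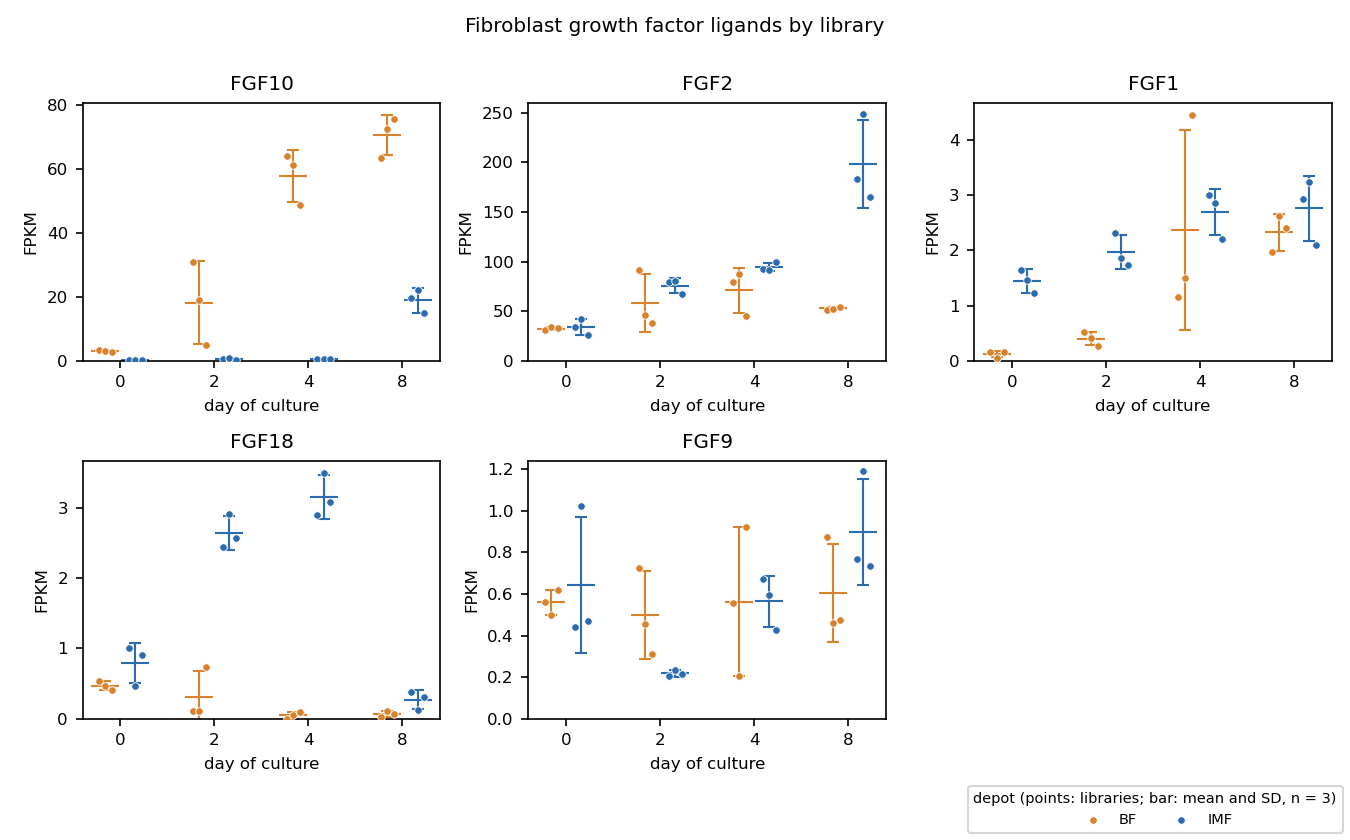
FPKM (linear axes, each with its own range) of the 5 ligands by day of culture, with BF in orange and IMF in blue; points are the 3 libraries of a group and bars the mean and SD, cut off at 0. FGF10 is high in BF from day 4 on, FGF2 is highest in IMF-8d (165 to 249 FPKM), and FGF18 is above 2 FPKM in the libraries of IMF-2d and IMF-4d only.

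FGF2 (ENSSSCG00000036213, chr8:101278877-101344084, minus strand), a ligand that binds heparan sulphate tightly, was the most abundant member in every group but BF-8d, and its called changes over time were all in IMF. In BF-0d the libraries had 30.7, 33.6 and 33.3 FPKM and in IMF-0d 34.2, 42.5 and 26.4 FPKM, so the depots overlapped before induction. In BF-8d the libraries had 51.4, 52.6 and 54.5 FPKM and in IMF-8d 183, 249 and 165 FPKM, with every IMF library at least 3 times as high as any BF library. The group means in between were 58.6 ± 29.2 and 71.1 ± 22.4 FPKM in BF-2d and BF-4d, and 75.8 ± 7.29 and 94.8 ± 4.21 FPKM in IMF-2d and IMF-4d (SD, n = 3).

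On day 8 FGF2 was higher in IMF by 1.87 (SE 0.26, adjusted p = 1.43e-05), while the differences on days 0, 2 and 4 were 0.05, 0.47 and 0.46 and none was called. In IMF the gene rose by 2.50 over 8 days (adjusted p = 2.99e-07), in 2 called steps of 1.14 over days 0 to 2 (adjusted p = 0.00876) and 1.04 over days 4 to 8 (adjusted p = 0.00386). In BF the 8-day difference was 0.68 (adjusted p = 0.0341) and was not called. The rise over 8 days was larger in IMF (interaction 1.82, SE 0.36, adjusted p = 0.00165), and this call was kept in all 10 alternative settings and all 24 fits without 1 library.

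The early step of FGF2 in IMF was the least stable call of the family. It was kept in 7 of the 24 fits without 1 library, and was lost with a pseudocount of 0.1 or 0.01 (adjusted p = 0.0122 and 0.0152) and without the filter on low genes (adjusted p = 0.0161). The later step was lost under quantile normalization (0.84, adjusted p = 0.0221), without IMF-8d replicate 2 (0.87) and without each of the IMF-4d replicates (adjusted p of at most 0.0151). The interaction over days 4 to 8 (1.41, adjusted p = 0.0103) missed the threshold narrowly and was called without BF-4d replicate 3 (1.69) or without any of the BF-2d replicates. It was also called with a filter at a mean of 1 FPKM, in a fit of the compared groups alone, under median ratio scaling and with the replicate number as a block (1.41 to 1.44, adjusted p = 0.00627 to 0.00895). The sum of the 6 mural markers was highest in the same group as FGF2, at 78.2 to 103 FPKM in IMF-8d against 18.1 to 26.9 FPKM in BF-8d, and most of it was RGS5, at 69.6 ± 13.6 FPKM (SD, n = 3) in IMF-8d. The means of the other 5 in IMF-0d and IMF-8d were 29.3 and 5.74 FPKM for CSPG4, 2.19 and 1.10 FPKM for MCAM, 8.99 and 10.8 FPKM for NOTCH3, 0.322 and 0.750 FPKM for KCNJ8 and 1.03 and 1.15 FPKM for ABCC9. Their part in the level of FGF2 was not tested. FGF2 also shares 1014 exon bases with NUDT6, an antisense gene on the opposite strand, so reads of the shared stretch cannot be told apart without strand. NUDT6 had between 0.355 and 1.90 FPKM over the 24 libraries and was called in 0 of the 16 comparisons. Its 8-day difference was 0.91 in IMF (adjusted p = 1.3e-05) and 0.43 in BF (adjusted p = 0.00817). On day 8, IMF minus BF was 0.49 (adjusted p = 0.00486). These stayed under the fold limit.

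FGF1 (ENSSSCG00000024954, chr2:144133846-144241345, minus strand), the ligand that binds all of the receptors, was low throughout and started from different levels in the depots. In BF-0d the libraries had 0.161, 0.0502 and 0.158 FPKM and in IMF-0d 1.65, 1.47 and 1.22 FPKM. In BF-2d the libraries had 0.513, 0.408 and 0.274 FPKM and in IMF-2d 2.32, 1.86 and 1.74 FPKM. On both days the depots did not overlap. In BF-4d the libraries had 1.15, 1.51 and 4.46 FPKM and in IMF-4d 3.0, 2.86 and 2.22 FPKM, and in BF-8d 1.97, 2.63 and 2.40 FPKM against 2.94, 3.24 and 2.11 FPKM in IMF-8d, so that the later groups overlapped.

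FGF1 was higher in IMF by 1.12 on day 0 (SE 0.22, adjusted p = 0.00156) and by 1.09 on day 2 (adjusted p = 0.00156), and the differences on days 4 and 8 were 0.25 and 0.17. In BF it rose by 1.57 over 8 days (adjusted p = 8.46e-06), with a called step of 1.14 over days 2 to 4. That step rested on BF-4d replicate 3, and without it was 0.73 and no longer called, although its adjusted p was 0.00202. In IMF the 8-day difference was 0.61 (adjusted p = 0.0366), and the difference between depots in the 8-day change (-0.95, adjusted p = 0.0409) was not called. With a pseudocount of 0.1 that interaction was -2.61 and called (adjusted p = 0.00121), since values well under 1 FPKM count more on such a scale. The call on day 2 was lost under median ratio scaling (0.998), under quantile normalization (0.94) and without IMF-2d replicate 1 (adjusted p = 0.0108), and the call on day 0 without BF-0d replicate 2 or IMF-0d replicate 1 (adjusted p = 0.0101 and 0.0104). When only the compared groups entered the fit, the calls on day 2 and over days 2 to 4 in BF were lost (adjusted p = 0.0103 and 0.176).

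FGF18 (ENSSSCG00000016997, chr16:52724867-52760246, minus strand), a ligand known from cartilage, bone and lung, ran through a transient peak in IMF. In IMF-0d the libraries had 1.005, 0.472 and 0.912 FPKM, and in BF-0d 0.532, 0.459 and 0.406 FPKM. In IMF-2d the libraries had 2.45, 2.91 and 2.57 FPKM and in IMF-4d 2.89, 3.49 and 3.08 FPKM. In IMF-8d the libraries had 0.377, 0.127 and 0.311 FPKM, all below those of IMF-0d. The BF libraries of days 2 to 8 did not exceed 0.729 FPKM, the value of BF-2d replicate 3, and the other 8 were at most 0.114 FPKM, with 1 library of BF-4d listed at 0.

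FGF18 was higher in IMF by 1.503 on day 2 (SE 0.14, adjusted p = 3.27e-07) and by 1.98 on day 4 (adjusted p = 2.07e-09). In IMF it rose by 1.03 over days 0 to 2 (adjusted p = 0.000118) and fell by 1.71 over days 4 to 8 (adjusted p = 2.50e-08). The differences between depots in these changes were called, at 1.22 for days 0 to 2 (SE 0.20, adjusted p = 0.000929) and -1.74 for days 4 to 8 (adjusted p = 7.45e-06). Over the whole 8 days the difference was -0.49 in IMF (adjusted p = 0.00968) and -0.45 in BF (adjusted p = 0.0119), both under the fold limit, and that in BF was called with pseudocounts of 0.1 and 0.01 (-1.75 and -2.70). Without BF-2d replicate 3 the day 2 difference was 1.72 and still called. The rise in IMF fell under the fold limit without IMF-0d replicate 2 (0.89) or IMF-2d replicate 2 (0.98), and a fit of the compared groups alone lost the call on day 2 and that of the first interaction (adjusted p = 0.0144 and 0.0160). With a pseudocount of 0.1 the day 4 difference was 4.51, and the rise over days 0 to 2 in IMF (adjusted p = 0.0237) and its interaction (adjusted p = 0.0131) were no longer called. FGF18 fell in IMF in the same interval in which FGF10 rose there, as the plot of the ligands by library shows.

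FGF9 (ENSSSCG00000009278, chr11:1554648-1581938, plus strand), a ligand expressed in many embryonic tissues, lay between 0.204 and 1.19 FPKM in the 24 libraries. The lowest group was IMF-2d, with 0.204, 0.236 and 0.216 FPKM, which did not overlap with IMF-0d (0.442, 1.02 and 0.467 FPKM). The difference was -0.41 with an adjusted p of 0.116. The highest group was IMF-8d, at 0.898 FPKM on average, and its difference from BF-8d was 0.25 (95% interval -0.08 to 0.57).

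Among the receptors, FGFR1 (ENSSSCG00000015815, chr15:48053895-48106634, plus strand), the main receptor of mesenchymal cells, was the most abundant in every library except BF-2d replicate 1, where FGFR2 equalled it. In BF-0d the libraries had 19.3, 19.6 and 22.7 FPKM and in BF-8d 25.7, 27.5 and 29.5 FPKM. In IMF-0d the libraries had 23.1, 24.4 and 24.9 FPKM and in IMF-8d 42.2, 42.9 and 47.2 FPKM. Every IMF library lay above every BF library of the same day. The log2 differences were small and below the limit of 1, at 0.23, 0.44, 0.39 and 0.66 on days 0, 2, 4 and 8, with adjusted p of 0.154, 0.00365, 0.00364 and 4.49e-05. Over 8 days the difference was 0.84 in IMF (SE 0.10, adjusted p = 1.90e-06) and 0.41 in BF (adjusted p = 0.00204), and its interaction was 0.43 (adjusted p = 0.0400).

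FGFR2 (ENSSSCG00000010698, chr14:131183095-131285001, minus strand), the receptor whose epithelial splice form binds FGF10 and FGF7, rose and fell again in BF. In BF-0d the libraries had 7.09, 7.54 and 7.39 FPKM and in BF-2d 24.2, 13.9 and 19.0 FPKM. In BF-4d the libraries were spread widely, at 22.7, 12.5 and 6.504 FPKM, and in BF-8d they had 3.23, 3.08 and 3.89 FPKM. The 12 IMF libraries lay between 3.57 and 7.45 FPKM, and their group means ran from 3.77 ± 0.205 FPKM on day 8 to 6.46 ± 0.874 FPKM on day 4 (SD, n = 3). Splice forms are not separated in these values.

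FGFR2 rose in BF by 1.23 over days 0 to 2 (SE 0.25, adjusted p = 0.000960) and fell by 1.61 over days 4 to 8 (adjusted p = 0.000217). On day 2 it was lower in IMF (-1.64, adjusted p = 0.000125), and the differences on days 0, 4 and 8 were -0.73, -0.85 and 0.12. The result on day 4 was called under median ratio scaling (-1.001) and quantile normalization (-1.0004), and also without the library that stood apart. Without BF-4d replicate 3 the depot difference was -1.27 and called (adjusted p = 4.76e-05), the difference in BF over days 4 to 8 was -2.03, and the interaction over days 4 to 8 was 1.39 and called (adjusted p = 0.000860), against 0.97 (adjusted p = 0.0675) with all libraries. Without BF-4d replicate 1 the interaction over days 2 to 4 was called (1.20, against 0.79), and the 8-day difference in BF (-0.93) was called without BF-8d replicate 3 (-1.004) and with pseudocounts of 0.1 and 0.01 (-1.09 and -1.11). All 3 called results of FGFR2 missed the adjusted p when a fit held only the compared groups (adjusted p = 0.0132, 0.0148 and 0.0810).

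FGFR3 (ENSSSCG00000030827, chr8:879151-894968, plus strand), known for its role in restraining cartilage growth, lay between 2.93 and 9.44 FPKM. In BF-0d the libraries had 2.93, 3.03 and 3.06 FPKM, in BF-2d 9.44, 7.56 and 7.39 FPKM, in BF-4d 8.95, 7.77 and 4.90 FPKM and in BF-8d 3.49, 4.03 and 3.91 FPKM. The 12 IMF libraries stayed between 3.20 and 4.32 FPKM over the whole culture. FGFR3 rose in BF by 1.18 over days 0 to 2 (SE 0.15, adjusted p = 6.02e-06), the IMF difference was 0.15, and the interaction was called (-1.03, SE 0.21, adjusted p = 0.00344). The difference in BF over days 4 to 8, -0.74, stayed under the fold limit (adjusted p = 0.00159). The depot differences on days 2 and 4, -0.88 and -0.83, had adjusted p of 0.000246 and 0.000124 and stayed under the fold limit, which the day 2 value passed under 4 alternative settings (-1.01 to -1.04). The interaction over days 0 to 2 was lost without BF-2d replicate 1 (-0.93), IMF-2d replicate 1 (-0.98) or BF-0d replicate 1 or 2 (adjusted p = 0.0103 and 0.0101). Without BF-4d replicate 3, the day 4 difference (-1.05) and the interaction over days 4 to 8 (1.08) were called as well. With all libraries that interaction was 0.86 (adjusted p = 0.00610), under the fold limit, which it passed with pseudocounts of 0.1 and 0.01 (1.01 and 1.03).

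FGFR4 (ENSSSCG00000014047, chr2:80841536-80853791, minus strand), the receptor of liver that works with beta-Klotho, was close to the floor of the table. It was listed at 0 in 5 of the 24 libraries and its highest value was 0.264 FPKM, in BF-8d. The difference over 8 days in BF was 0.19 (adjusted p = 0.0135), and with a pseudocount of 0.1 it was 1.13 and called (adjusted p = 0.00777). KLB, which encodes beta-Klotho and was looked up after the level of FGFR4 was seen, had group means of at most 0.106 FPKM.

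**Figure D3:**
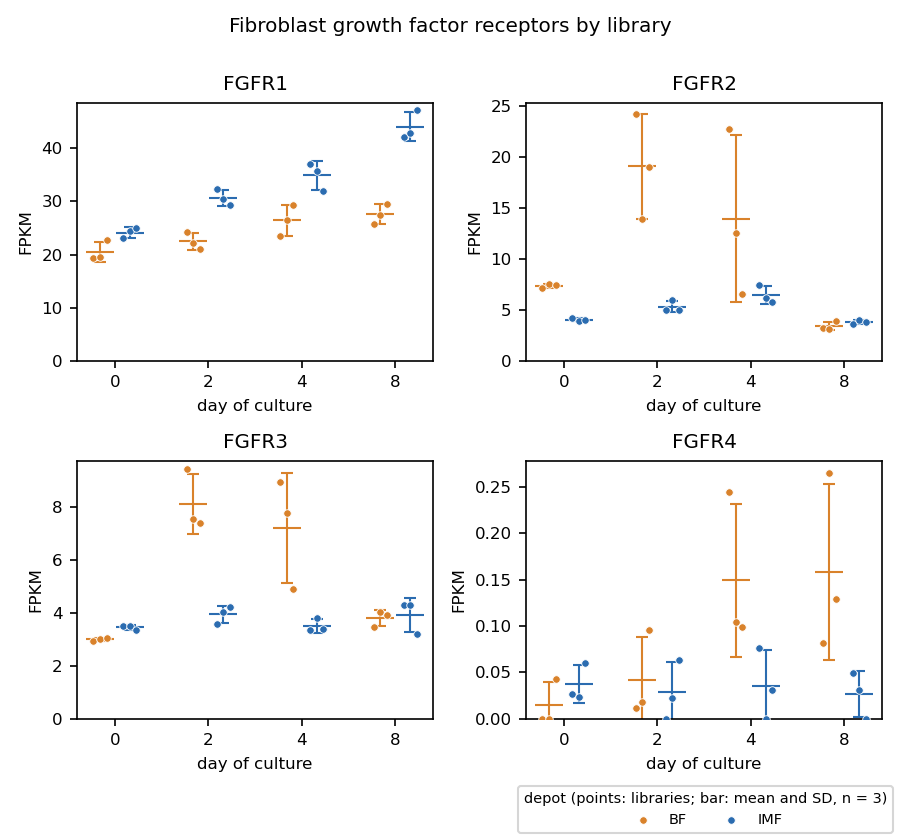
FPKM (linear axes, each with its own range) of the 4 receptors by day of culture, with BF in orange and IMF in blue; points are the 3 libraries of a group and bars the mean and SD, cut off at 0. FGFR1 is above in IMF on every day, FGFR2 and FGFR3 have their highest values in BF-2d and BF-4d, and FGFR4 stays under 0.3 FPKM.

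The order of the groups differed between members. For FGF10 it ran from BF-8d and BF-4d, whose libraries overlapped, through IMF-8d and BF-2d, which also overlapped, to BF-0d and then the 3 earlier IMF groups, with no overlap between BF-0d and IMF-4d. For FGF2 the order began with IMF-8d, IMF-4d and IMF-2d, and the first 2 steps showed no overlap. For FGFR1 it began with IMF-8d, IMF-4d and IMF-2d as well, and only the first step was free of overlap. For FGFR2 and FGFR3 it began with BF-2d and BF-4d, which overlapped in both genes.

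The make-up of the family shifted over the culture. FGF2 gave 87.2 to 89.4% of the summed FPKM of the 5 ligands in BF-0d and 40.9 to 43.6% in BF-8d, where FGF10 gave 54.0 to 56.9%. In IMF, FGF2 remained at 88.5 to 94.0% in the libraries of all days, and FGF10 reached at most 9.51%, in IMF-8d. The ratio of FGF10 to FGF2 was 0.0858 to 0.107 in BF-0d and 1.24 to 1.39 in BF-8d, a crossing of 1 that the BF-4d libraries (0.697 to 1.07) straddled. In IMF the ratio was at most 0.0102 up to day 4 and 0.0894 to 0.107 on day 8, a range that overlapped with that of BF-0d. Summed over the 5 ligands, the libraries of BF-0d had 35.2 to 37.6 FPKM and those of BF-8d 118 to 133 FPKM, and the libraries of IMF-0d had 29.1 to 45.6 FPKM and those of IMF-8d 183 to 276 FPKM.

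Receptor shares also differed between groups. FGFR1 gave 65.0 to 68.4% of the summed receptor FPKM in BF-0d, 41.8 to 50.7% in BF-2d and 78.8 to 79.1% in BF-8d. In IMF it gave 74.9 to 79.0% up to day 4 and 83.8 to 87.1% on day 8. The ratio of FGFR2 to FGFR1 was 0.630 to 1.001 in BF-2d, and 0.112 to 0.132 in BF-8d, and never above 0.201 in IMF.

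**Figure D4:**
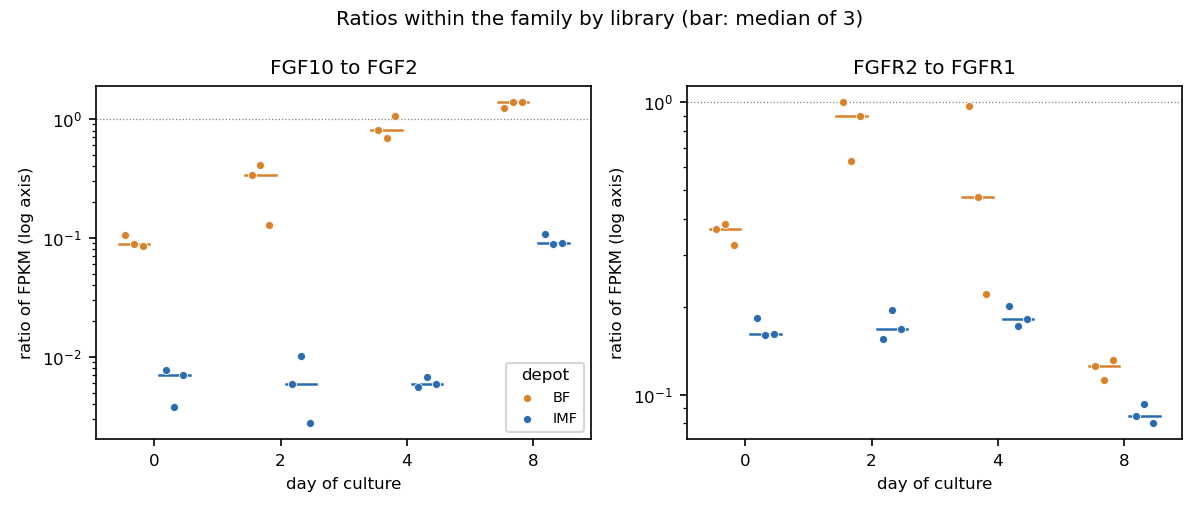
Ratio of FGF10 to FGF2 (left) and of FGFR2 to FGFR1 (right) in FPKM per library on log axes, by day of culture, with BF in orange and IMF in blue; points are libraries, bars the median of 3 and the dotted line a ratio of 1. The FGF10 to FGF2 ratio passes 1 in BF only, and the IMF-8d ratios lie where the BF-0d ratios were.

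Genes whose levels followed a member most closely over the 24 libraries were sought by Pearson's correlation of log2(FPKM + 1) among 10080 genes with a symbol and at least 1 FPKM in some group. The libraries share depot and day, so r describes a common course and carries no p. FGF10 was most like SLC6A6 (r = 0.983), LSAMP (0.980) and BIRC3 (0.978), FGF2 was most like ST3GAL5 (0.931), NUDT6 (0.913, its antisense gene) and HOXC6 (0.900), and FGF1 like PPP1R3C (0.852), SERPINE2 (0.832) and ETV5 (0.799). FGF18 was most like FZD8 (0.950), ADGRL3 (0.940) and EPHA3 (0.935). Of the receptors, FGFR1 was most like INMT (0.919), FGFR2 like RFLNB (0.889) and FGFR3 like GUCD1 (0.904), followed by the phosphatase gene DUSP1 (0.899). Within the family, r was 0.813 between FGFR2 and FGFR3, 0.851 between FGF2 and FGFR1, 0.784 between FGF1 and FGFR1 and -0.815 between FGF10 and FGF18.

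Another 84 genes around the family were tested in 6 lists. Between depots 5, 11, 19 and 10 of the 84 were called on days 0, 2, 4 and 8 (5.95, 13.1, 22.6 and 11.9%, against 2.58, 4.74, 11.3 and 6.96% of all genes). Over the successive intervals 19, 11 and 2 were called in BF (22.6, 13.1 and 2.38%, against 6.59, 3.35 and 2.93% of all genes) and 6, 0 and 16 in IMF (7.14, 0 and 19.0%, against 0.787, 0.0372 and 7.25%). The lists were written by hand with earlier results of these data known, so these shares are a description.

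Of the other FGF genes listed, 12 of 16 had a row and 7 were tested. FGF19, an endocrine ligand of the gut and bile acid axis, fell in both depots over days 0 to 2, by 1.96 in BF (SE 0.17, adjusted p = 7.01e-08) and by 1.76 in IMF (adjusted p = 1.75e-06). Its means were 5.53 ± 0.443 FPKM in BF-0d and 5.54 ± 0.763 FPKM in IMF-0d, and 0.131 ± 0.0839 and 0.232 ± 0.0305 FPKM on day 8 (SD, n = 3). The other 6 were called in 0 comparisons. Among them FGF11, named here after its values were seen, had group means of 7.64 to 12.8 FPKM.

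Among 13 tested co-receptors and binding partners, the adhesion molecules NCAM1 and CDH2 (N-cadherin), both known to bind FGFR1, and the glypican GPC6 were higher in IMF on days 0, 2 and 8, and NCAM1 and GPC6 on day 4 too. NCAM1 was at 57.0 ± 6.30 FPKM in IMF-0d against 12.7 ± 1.69 in BF-0d (2.09, adjusted p = 2.70e-06), and at 42.3 ± 4.44 against 1.20 ± 0.244 FPKM on day 4 (4.30, adjusted p = 8.89e-11). It fell over 8 days in both depots, by 2.95 in BF and by 2.84 in IMF. Syndecan SDC2, a cell surface carrier of heparan sulphate, fell by 3.39 in BF and by 1.43 in IMF over 8 days, and the difference between depots was called (1.96, SE 0.31, adjusted p = 0.000247). FGFRL1, the family's receptor without a kinase, rose in BF from 2.13 ± 0.548 to 5.997 ± 1.45 FPKM between days 0 and 2 (1.15, adjusted p = 0.000317), as FGFR2 and FGFR3 did.

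Among 12 tested genes of heparan sulphate synthesis and editing, the sulphatases SULF1 and SULF2, which trim sulphate groups from the chains outside the cell, moved in opposite directions. SULF1 rose over 8 days by 1.19 in BF and by 2.72 in IMF, where it went from 30.8 ± 3.60 to 209.6 ± 38.8 FPKM. SULF2 fell over the same days by 3.11 in BF, from 48.4 ± 3.34 to 4.72 ± 0.362 FPKM, and by 1.38 in IMF. Both 8-day changes differed between depots (interactions 1.53 and 1.73, adjusted p = 0.00587 and 0.00138). The median log2 fold change of the list over 8 days was 0.12 in BF and 0.07 in IMF, against -0.06 and -0.05 over all genes.

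Of 23 tested signal transducers, at most 3 were called in a single comparison, in BF over days 0 to 2 (6.59% of all genes), and the docking protein gene GAB1 was called in 8 of the 16 comparisons. GAB1 fell over 8 days in BF (11.99 ± 0.841 to 1.19 ± 0.238 FPKM, -2.57, adjusted p = 3.32e-08) and in IMF (11.2 ± 2.02 to 2.18 ± 0.420 FPKM, -1.94, adjusted p = 2.51e-06). In BF it fell by 1.77 already over days 0 to 2, and in IMF it fell by 1.94 over days 4 to 8. PIK3R1, a regulatory subunit of PI3 kinase, rose in IMF over 8 days by 1.62.

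The 14 tested genes listed as feedback inhibitors are, for the most part, genes that ERK signalling is known to induce and whose products damp it. In BF, 6 rose and 1 fell over 8 days (13.7% of all genes called; median 0.71, against -0.06 over all genes), and in IMF 4 rose and 1 fell (9.04% of all genes; median 0.40, against -0.05). The gene that fell in both depots was FLRT2, named here after its values were seen, a membrane protein known to bind the receptors rather than an inhibitor of ERK. DUSP4, a nuclear phosphatase of ERK, went from 0.677 ± 0.153 to 23.2 ± 3.96 FPKM in BF (3.84, adjusted p = 7.79e-07) and from 2.07 ± 0.630 to 26.6 ± 4.69 FPKM in IMF (3.17, adjusted p = 1.43e-05). SPRY4, a Sprouty protein, rose by 2.44 in BF and 1.90 in IMF. In IMF, DUSP4 and SPRY4 had 3.78 ± 0.423 and 2.81 ± 0.263 FPKM on day 4, with no called difference up to then, and rose over days 4 to 8 by 2.52 and 1.92. In the same interval 3 of the 14 fell in IMF, namely IL17RD, FLRT2 and DUSP6, the last by 1.04 (the latter 2 named after their values were seen), where 7.25% of all genes were called. IL17RD, an inhibitor at the membrane, had another course and was higher in IMF on days 0, 2 and 4 (1.14, 2.74 and 3.0), rose there by 1.03 to day 2, and fell there by 2.21 over days 4 to 8.

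Among 15 tested ERK target genes, 7 rose and 0 fell in BF over 8 days (13.7% of all genes called; median 0.98, against -0.06 over all genes), and 2 rose and 2 fell in IMF (9.04% of all genes; median -0.04, against -0.05). IER3, an early response gene, rose in BF from 40.1 ± 5.55 to 609 ± 95.4 FPKM (3.89, adjusted p = 2.85e-07) and in IMF from 23.4 ± 1.99 to 120.3 ± 14.7 FPKM (2.31, adjusted p = 0.000211). ETV4, an ETS factor, rose by 1.90 in BF and 2.42 in IMF, in IMF between days 4 and 8 (2.17, adjusted p = 0.000196). EGR1, an immediate early factor, rose over days 0 to 2 by 1.60 in BF and by 1.08 in IMF, and on day 8 was lower in IMF (-1.78, adjusted p = 4.33e-07). The 2 that fell in IMF over 8 days were CCND1, the cyclin D1 gene, by 1.35, and EGR3, named here after its values were seen. For 6 of the 15 the 8-day change was lower in IMF than in BF by a called difference (4.98% of all genes), with the largest for FOSL1 (-1.99), CCND1 (-1.91) and EGR1 (-1.82), and the median of the list was -1.19 against 0.01 over all genes. These genes answer to other inputs of the medium besides growth factors, and the source of their changes was not tested.

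**Figure D5:**
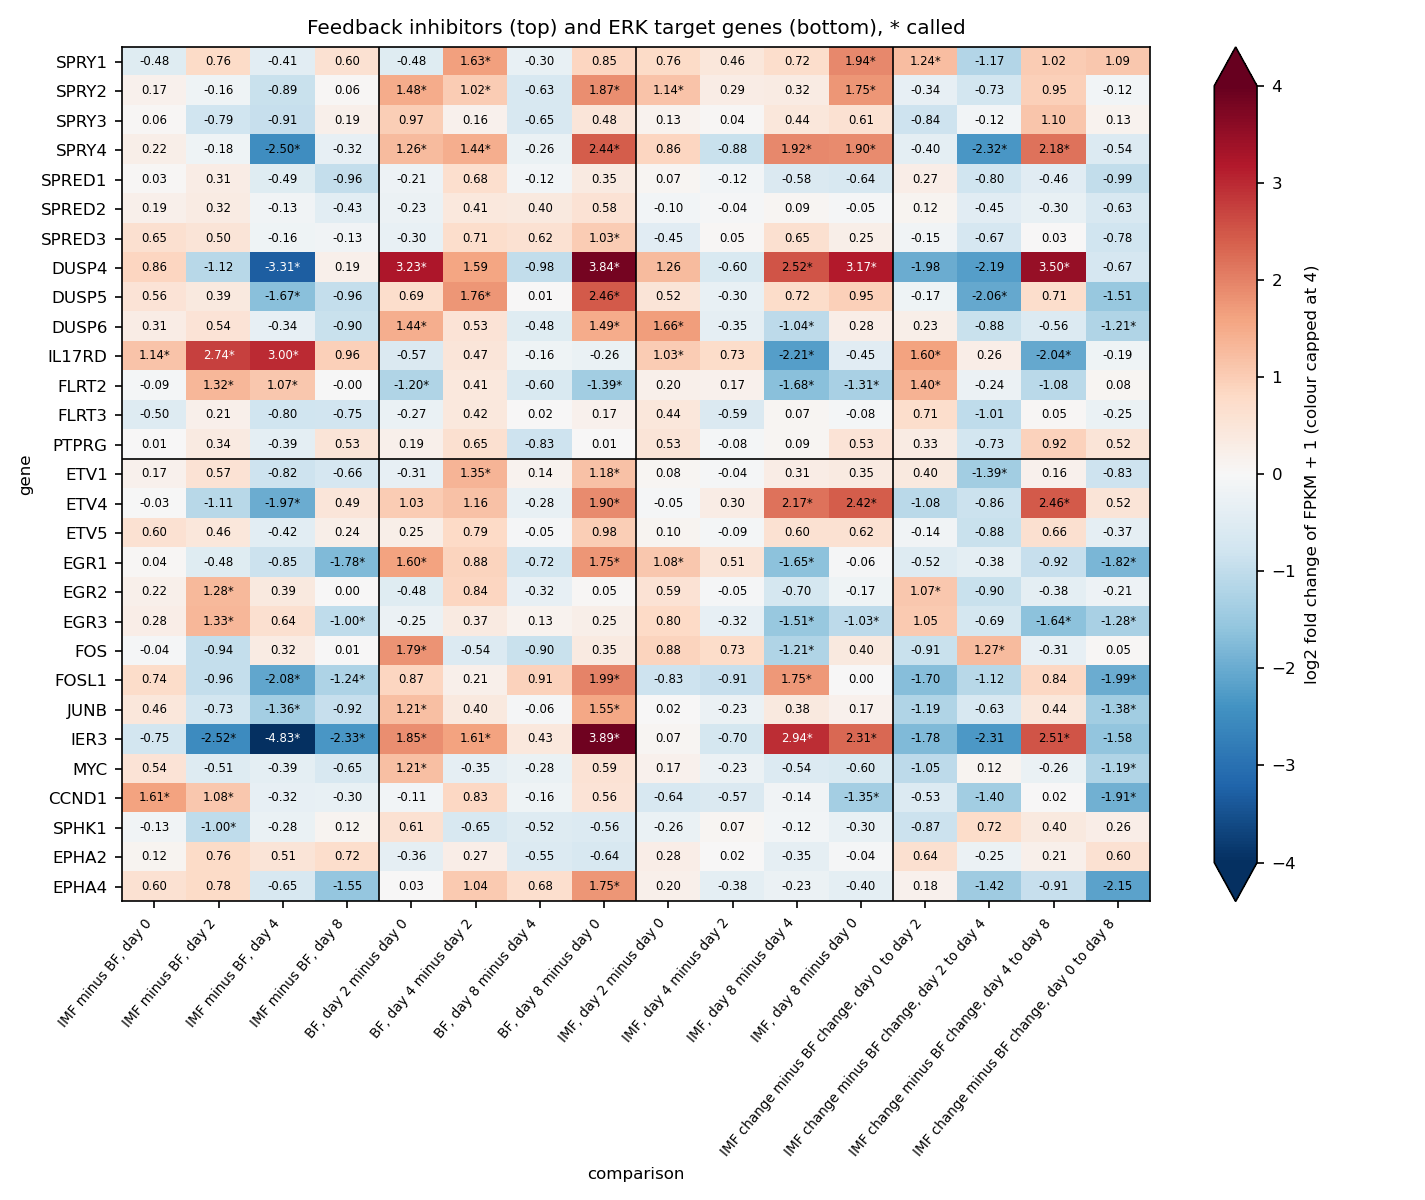
Log2 fold change of FPKM + 1 for the 14 feedback inhibitors (above the line) and 15 ERK target genes (below) in the 16 comparisons, laid out as in the map of the 9 family members, from 3 libraries per group; the colour is capped at 4 and an asterisk marks a called difference. For IMF between day 4 and day 8, DUSP4, SPRY4, ETV4, FOSL1 and IER3 carry asterisks as rises and DUSP6, IL17RD, FLRT2, EGR1, EGR3 and FOS as falls, and the column of IMF day 4 minus day 2 carries none.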

How the data were processed

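Polyadenylated RNA was sequenced by the study in 24 libraries. Per its methods, the authors aligned the reads with HISAT2, assembled and quantified transcripts with StringTie (1.3.4d in the submitters' processing notes, which also name DESeq2 1.6.3) and deposited 1 FPKM value per gene and library. Whether counting used strand is not given in the sources used here. Counts were not analysed here, so DESeq2, which the authors used, could not be run, and the depth behind a value is unknown. Of the table's columns, 0 were left without a sample. The series' small RNA libraries were not analysed here.

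Symbols were assigned to the table's Ensembl identifiers, where 14815 of 21271 matched, and FGF7 matched no row. Log2(FPKM + 1) of the 16135 genes with an FPKM sum above 1 was fitted with limma 3.58.1 in R 4.3.3 over all 24 libraries, with 1 mean per group and eBayes with trend and robust settings. Contrasts compared depots on each day, days within each depot, and the change in IMF with that in BF (the interaction), 16 in all. P-values were adjusted by Benjamini-Hochberg over all tested genes of a contrast, and the study's thresholds, an adjusted p under 0.01 and a log2 fold change of 1 or more in either direction, were kept. The fit was tested on simulated data.

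All members are named, and from each of 6 lists of pathway genes up to 3 called genes per contrast with the largest absolute fold change and at least 1 FPKM on average in the higher group. Other genes are marked as chosen after their values were seen. Some genes that the rule names are not reported here. Likeness was Pearson's r over the 24 libraries. Members and lists were chosen with earlier results of these data known. Alternatives were other pseudocounts (0.1 and 0.01), filters, scalings, variance moderation, thresholds, a replicate block, fits of the compared groups alone and 24 fits without 1 library. No batch is given in the labels.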

Additional observations from a re-analysis of the deposited data

Results flagged for a closer look

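The change over an interval differed between depots by a called interaction in limma for 5 results of the family and 33 of the pathway lists. Of the 33, 30 are named by the rule and given here. Over the successive intervals and the whole culture, 5.95, 7.14, 14.3 and 11.9% of the 84 pathway genes were called. Of all genes, 2.45, 3.06, 6.39 and 4.98% were called, and of the 9 members 2, 0, 2 and 1. Values are the log2 change in IMF minus that in BF.

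Within the family, FGF2 differed over days 0 to 8 (1.82), FGF10 over days 4 to 8 (3.35), FGF18 over days 0 to 2 (1.22) and in the other direction over days 4 to 8 (-1.74), and FGFR3 over days 0 to 2 (-1.03).

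Over days 0 to 2, the pathway genes with a called difference were IL17RD (1.60), GAB1 (1.49), FLRT2 (1.40), SPRY1 (1.24) and EGR2 (1.07), each with the more positive change in IMF. Over days 2 to 4 they were FOS (1.27) and MAPK3 (1.06), with the more positive change in IMF, and SPRY4 (-2.32), DUSP5 (-2.06), ETV1 (-1.39) and CDH2 (-1.36), with the more positive change in BF. The call of DUSP5 was lost without BF-2d replicate 3 (-1.75, adjusted p = 0.0237) or BF-4d replicate 3 (-2.02, adjusted p = 0.0168), and that of MAPK3 without BF-2d replicate 3 (0.87).

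Over days 4 to 8, more positive changes in IMF were found for DUSP4 (3.5), SULF1 (3.02), IER3 (2.51), ETV4 (2.46), SPRY4 (2.18), CDH2 (1.94), HS6ST1 (1.58) and GPC2 (1.37), and more negative ones for NCAM1 (-2.10), IL17RD (-2.04), EGR3 (-1.64) and GAB1 (-1.59). Over the whole 8 days, 7 of the 10 called genes are named by the rule, SDC2 (1.96), SULF2 (1.73) and SULF1 (1.53) with the more positive change in IMF, and FOSL1 (-1.99), CCND1 (-1.91), EGR1 (-1.82) and DUSP6 (-1.21) with the more positive change in BF.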

How the results depend on the processing

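Summed over the 4 contrasts of each kind, 10 member results were called between depots, 8 between days in BF, 7 between days in IMF and 5 for the interaction, and 45, 56, 38 and 33 results of pathway genes. When only the libraries of the compared groups entered a fit, the members' counts between depots and in BF were 6 and 3, and the pathway count in BF was 27. Those fits hold fewer libraries. With an adjusted p under 0.05 and any fold change, the members' counts were 17, 15, 12 and 11 and the pathway counts 129, 148, 95 and 92. Over the 24 fits without 1 library, the members' counts ran from 9 to 12, 7 to 9, 5 to 7 and 4 to 8, and the pathway counts from 43 to 51, 52 to 59, 34 to 39 and 23 to 47. The highest interaction count of the members, 8, was found without BF-4d replicate 3. Shares of all genes called under these settings and fits are not given here. Shifts common to all genes thus cannot be told apart from those of the lists. Neither the 30 called member results nor the 135 named pathway results changed direction under the 10 alternatives or in these fits, and for the calls lost the cause was not tested. Of the 114 member differences that were not called, 30 changed sign in at least 1 fit, in 0 cases with a call. Among them the 8-day interaction of FGF10, -0.12, was 1.46 and 1.93 with pseudocounts of 0.1 and 0.01 and ran from -0.24 to 0.036 over the fits without 1 library, with the highest without IMF-8d replicate 3. Pseudocounts under 1 enlarged differences of FGF1, FGF18 and FGF10, for FGF10 between depots to -3.85, -5.05 and -6.62 on days 0, 2 and 4. Of 135 named pathway results, 95 kept their call when only the compared groups were fitted, 126 to 135 under the other alternatives and 123 to 132 without 1 library.

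The labels do not say whether replicate numbers pair the libraries. The correlations below pool both depots and all days and cannot settle it. Deviations from the group means correlated with a median r of 0.00136 between same-numbered libraries (-0.454 to 0.457, 84 pairs) and -0.00113 between others, and 10 of 24 libraries correlated best with their own number. With the replicate number as a block, 10, 8, 7 and 6 member results and 44, 56, 37 and 30 pathway results were called, and the interaction of FGF2 over days 4 to 8 was called in addition (adjusted p = 0.00627).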
